A study of Mus musculus with 12 samples.

Results

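The piRNA pathway and Tudor domain genes examined here were *Piwil2*, *Piwil4*, *Mov10l1*, *Tdrd1*, *Tdrd5*, *Tdrd9*, *Rnf17*, *Mael*, *Asz1* and *Gtsf1*. They were chosen by name, as 10 of the 28866 genes with a probe on the arrays, and all 10 were among the 18665 genes whose probes passed the filter on dim signals. The arrays named 9 of them by gene symbol. *Piwil4* was found only through its probe description, since its probes carried an Ensembl transcript identifier in place of a symbol.

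The study asked how far the transcriptome of the ovary shifted when *Smad4* was deleted from female germ cells with or without *Stra8*. RNA of E14.5 mouse gonads was hybridised to 12 single-colour arrays, 3 in each of 4 groups, with 1 pair of gonads per array. Control testes were all Smad4Flox/+ StellaMerCreMer Stra8+/-. Control ovary 1 had that same genotype, control ovary 2 was Smad4Flox/+ Stra8+/- and control ovary 3 was Smad4Flox/Flox Stra8+/-, so that 2 of the 3 control ovaries carried no Cre. *Smad4 (Stella)* ovaries were Smad4flox/flox MerCreMer Stra8+/-, and DKO ovaries were Smad4flox/flox MerCreMer Stra8-/-. Every group other than DKO thus carried 1 null *Stra8* allele, all animals were of mixed background, and tamoxifen had been given at E9.5 and E10.5. The Cre is driven by the element of *Stella*, a gene of germ cells, and the study describes the efficiency of its recombination as variable and the knockout as incomplete. RNA came from whole gonads, so that fewer cells of a type and less RNA per cell cannot be told apart.

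piRNAs are small RNAs of the germ line that guide PIWI proteins to transposon transcripts. In fetal male germ cells, precursor transcripts are processed in perinuclear granules beside mitochondria, where PIWIL2 (MILI) resides. PIWIL4 (MIWI2) is loaded there, enters the nucleus and directs DNA methylation of transposons. Tudor domain proteins recognise methylated arginines on PIWI proteins and hold these granules together.

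The gonads were as labelled by their somatic markers. All 6 Sertoli cell markers and all 4 measured fetal Leydig cell markers were higher in control testes than in control ovaries, and all 6 pregranulosa markers were lower. None of these 16 differed between DKO and control ovaries. *Stra8*, the retinoic acid target needed for meiotic entry, differed between DKO and control ovaries by -1.02 ± 0.18 (log2 difference ± SE, limma adjusted p = 0.00271) but stayed far above its level in testes, and *Smad4* differed by -0.13 ± 0.14. Neither value checks a deletion fully, because germ cells are a part of the tissue and the probes may lie outside the deleted exons. Of the germ cell genes, *Ddx4* differed between DKO and control ovaries by 0.14 ± 0.15 and *Dazl* by -0.08 ± 0.14, neither past the test. *Taf4b*, a germ cell transcription factor, was 2.78-fold lower in DKO ovaries (adjusted p = 3.54e-05), a call that was lost with normexp background correction. Between control testes and control ovaries *Ddx4* and *Dazl* stood at -0.57 ± 0.15 and -1.62 ± 0.14. Arrays of a group correlated at r of 0.9755 to 0.9937 over genes, and between 58.8% and 70.7% of probes were above background. DKO ovary 3 had 198 outlier spots, against 46 to 110 on each of the other arrays.

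Levels are given below as log2 of the processed signal, relative to the 75th percentile of the same array, so that 0 is that percentile. They compare samples for 1 gene and not genes with each other. A gene was called higher or lower when its limma p, adjusted by Benjamini-Hochberg over all 18665 genes, was under 0.05 and its difference at least 1.5-fold. Values after ± are standard errors of a difference in log2, with n = 3 arrays in each group.

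The 10 genes were measured by 16 probes, each a 60-base oligonucleotide, of which 15 were above background. The second *Piwil4* probe was not above background on any of the 12 arrays and was left out. *Tdrd5* had a bright and a dim probe, and both are shown because they gave its change different sizes. The first lies at chr1:158185800-158185859 and the other at chr1:158207541-158207600, both on the minus strand of mm9.
Tdrd5, bright probe: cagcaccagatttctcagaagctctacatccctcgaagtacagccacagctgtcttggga
Tdrd5, dim probe: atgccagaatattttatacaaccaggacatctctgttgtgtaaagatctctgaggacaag

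RefSeq promoter windows of GRCm38.p6, which run from 250 bases before to 50 bases after an annotated start, were found for 8 of the 10 genes and made 11 windows in all. They are shown for the 5 genes whose window held 1 of 3 motifs searched on both strands. The motifs were the E-box CACGTG, the E2F motif TTCCCGC and the MYB motif AACTGNC, which do not overlap in these windows. Capitals mark the matches.
Tdrd1, chr19:56825959-56826258, plus strand: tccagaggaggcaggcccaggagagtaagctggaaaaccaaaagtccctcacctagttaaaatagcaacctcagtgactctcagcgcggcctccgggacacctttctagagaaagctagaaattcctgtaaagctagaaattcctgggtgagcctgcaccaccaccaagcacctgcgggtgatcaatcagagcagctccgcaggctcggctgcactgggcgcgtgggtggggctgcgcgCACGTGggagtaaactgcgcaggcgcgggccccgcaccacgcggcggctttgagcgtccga
Tdrd9, chr12:111971309-111971608, plus strand: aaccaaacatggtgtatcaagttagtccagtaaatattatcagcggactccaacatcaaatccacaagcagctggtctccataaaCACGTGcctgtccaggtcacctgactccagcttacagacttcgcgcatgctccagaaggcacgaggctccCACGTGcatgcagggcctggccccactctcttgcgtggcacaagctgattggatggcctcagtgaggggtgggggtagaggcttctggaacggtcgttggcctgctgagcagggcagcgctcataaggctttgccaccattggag
Mov10l1, chr15:88982744-88983043, plus strand: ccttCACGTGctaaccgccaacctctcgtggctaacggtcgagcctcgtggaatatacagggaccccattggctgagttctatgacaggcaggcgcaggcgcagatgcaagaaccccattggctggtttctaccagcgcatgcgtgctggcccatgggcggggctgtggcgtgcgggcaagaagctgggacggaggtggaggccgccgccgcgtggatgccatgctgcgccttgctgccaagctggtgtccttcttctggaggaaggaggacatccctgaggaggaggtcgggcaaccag
Mael, chr1:166238695-166238994, minus strand: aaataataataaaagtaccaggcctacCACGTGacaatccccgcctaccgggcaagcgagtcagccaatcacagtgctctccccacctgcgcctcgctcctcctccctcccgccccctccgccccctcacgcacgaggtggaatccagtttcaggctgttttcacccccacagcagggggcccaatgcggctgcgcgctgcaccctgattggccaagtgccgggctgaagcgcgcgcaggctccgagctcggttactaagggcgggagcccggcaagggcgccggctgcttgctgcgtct
Tdrd5, chr1:156303299-156303598, minus strand: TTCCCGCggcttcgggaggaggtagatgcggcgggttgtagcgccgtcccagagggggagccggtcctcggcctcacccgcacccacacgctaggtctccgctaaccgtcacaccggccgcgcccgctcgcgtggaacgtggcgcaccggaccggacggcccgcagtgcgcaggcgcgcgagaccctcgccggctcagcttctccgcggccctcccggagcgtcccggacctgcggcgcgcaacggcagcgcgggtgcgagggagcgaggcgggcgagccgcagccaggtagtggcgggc

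The E-box was in the windows of *Tdrd1*, *Tdrd9*, *Mov10l1* and *Mael*, that is 4 of 8 genes, against 8.09% of the 27025 genes with a window. *Tdrd9* held 2 copies, at positions -165 to -160 and -95 to -90 from its start. The copy of *Tdrd1* lay at -11 to -6 from the first of its 3 starts and was shared by the window of the second. The E2F motif was in that of *Tdrd5* alone, against 5.29% of all genes, and the MYB motif in none of the 11 windows, against 12.8% of all 32851 windows. Of the 4 genes with an E-box, *Tdrd1* and *Tdrd9* were higher in both control testes and DKO ovaries, while *Mov10l1* and *Mael* passed the test in no comparison. These matches are a description of the letters in the window.

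**Figure D1:**
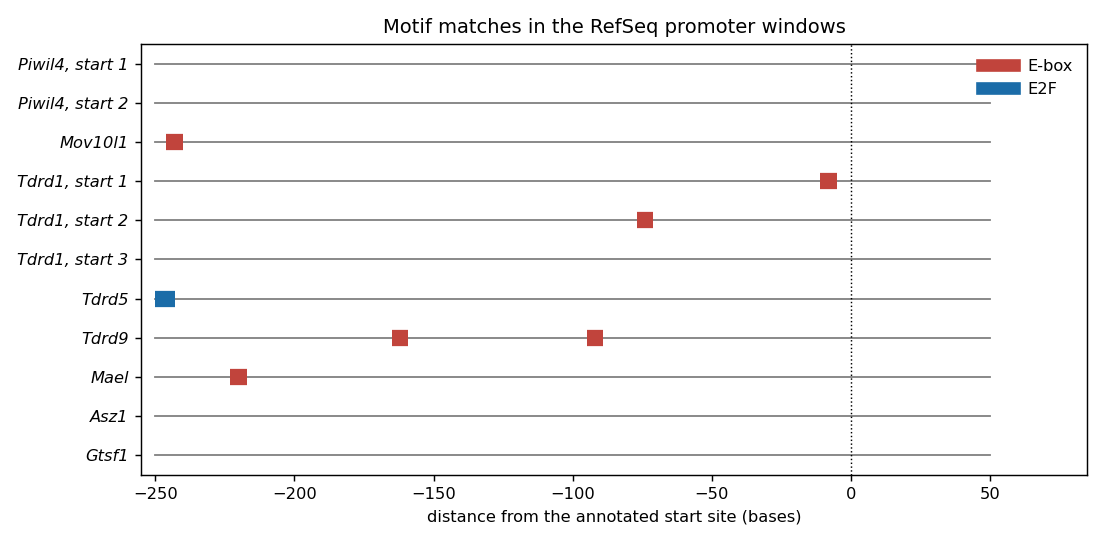
Positions of the motif matches in the 11 RefSeq windows of 8 genes. The x axis is the distance from the annotated start in bases, each grey line is 1 window, and coloured blocks are E-box or E2F matches. The E-box copies of *Mov10l1* and *Mael* lie near the far end of the window, and that of *Tdrd1* lies next to the start site.

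Control testes were compared with control ovaries to learn which of the genes differ between the sexes at E14.5. Of the 10 genes, 7 were higher in testes, 1 was lower and 2 did not pass the test, against 34.0% of all genes called in either direction, 17.2% called higher and 16.7% called lower. The median difference of the 10 genes was 1.26, and that of all genes 0.02. On 9 of the 10 genes the testes and ovaries did not overlap, as on 58.4% of all genes. *Piwil4* differed most among the 10, and *Rnf17* was the gene that was lower.

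DKO ovaries were compared with control ovaries to ask which of these genes changed when both factors were lost. Here 6 of the 10 genes were higher and 1 lower, against 14.7% of all genes called in either direction, 6.71% called higher and 7.94% called lower. The median difference was 1.12 for the 10 genes and 0.00 for all genes. The groups did not overlap on 6 of the 10 genes and on 32.9% of all genes. The 6 higher genes were *Piwil2*, *Piwil4*, *Tdrd1*, *Tdrd5*, *Tdrd9* and *Gtsf1*, and the lower one was *Rnf17*. Each of them was called in the same direction between control testes and control ovaries, a comparison that shares the control ovaries.

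In *Smad4 (Stella)* against control ovaries, limma called 0 of the 10 genes, and at an unadjusted p under 0.05 it gave 1, *Rnf17*. Over all genes 0.279% were called. The median difference was -0.06 for the 10 genes and -0.02 for all, and the groups did not overlap on 3 of the 10 genes against 28.1% of all. DKO against *Smad4 (Stella)* ovaries, which differ in their *Stra8* alleles, gave 6 of the 10 genes higher and 0 lower, with 8.42% of all genes called, 4.40% called higher and 4.02% called lower. These groups did not overlap on 7 of the 10 genes and on 31.2% of all. At an unadjusted p under 0.05 were 8 of the 10. The share of all genes at that unadjusted limit was not computed, in either comparison.

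**Figure D2:**
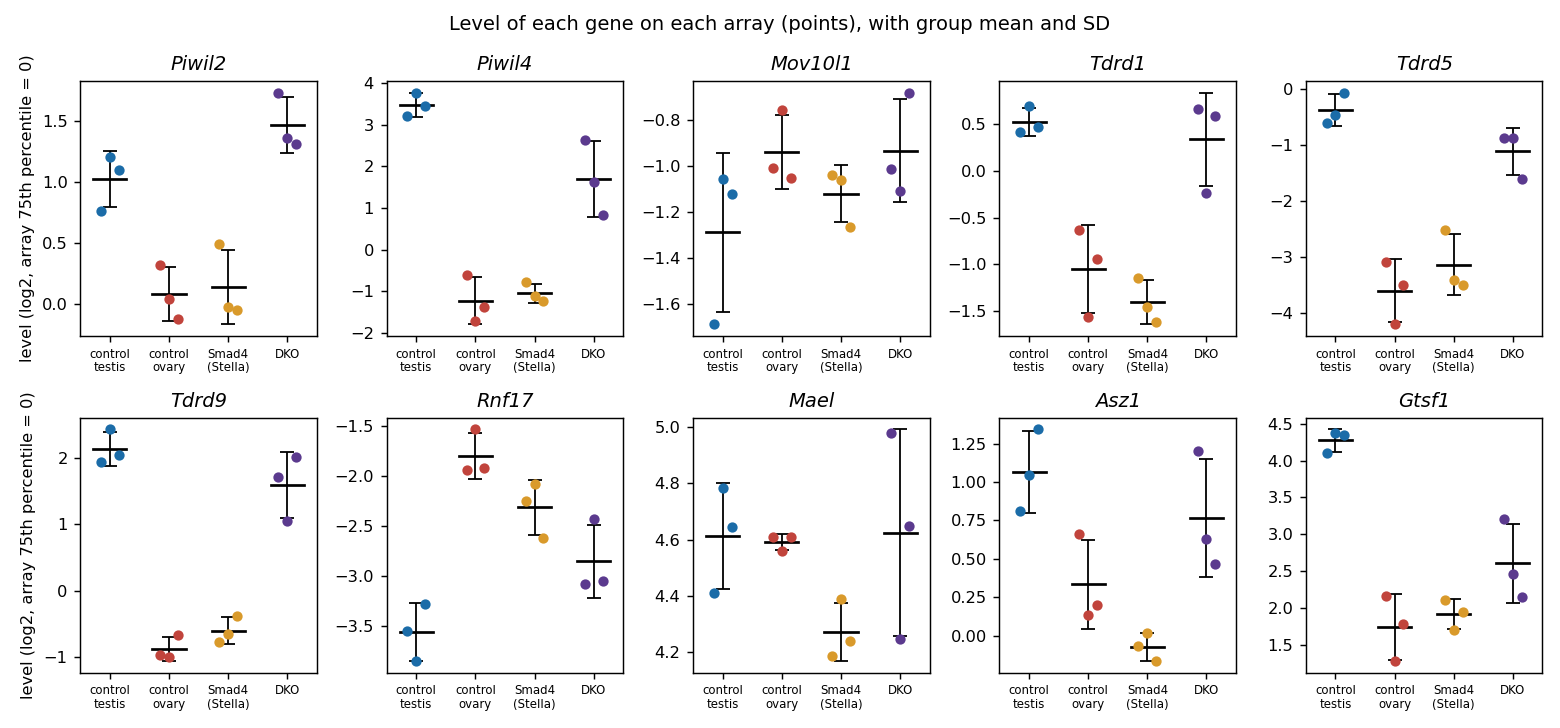
Level of each of the 10 genes on each of the 12 arrays, in log2 with 0 at the 75th percentile of the array; points are arrays, bars are group means and error bars are SD. *Piwil2*, *Piwil4*, *Tdrd1*, *Tdrd5* and *Tdrd9* show all 3 DKO ovaries above all 3 control ovaries, while *Rnf17* runs the other way. Each panel has its own y axis.

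The PIWI proteins came first. *Piwil4* encodes MIWI2, the nuclear PIWI protein. The control testes read 3.21, 3.77 and 3.44, well above the control ovaries at -0.60, -1.71 and -1.37. The *Smad4 (Stella)* ovaries gave -0.79, -1.13 and -1.22, and the DKO ovaries 2.63, 1.63 and 0.82. Each DKO ovary lay above every control and *Smad4 (Stella)* ovary and below every testis, and DKO ovary 3, the 1 hybridised on another slide, was the lowest of its group. The difference between testes and control ovaries was 4.70 ± 0.41, or 25.9-fold (adjusted p = 7.81e-06). DKO ovaries exceeded control ovaries by 2.92 ± 0.41, or 7.56-fold (adjusted p = 0.000675), and *Smad4 (Stella)* ovaries by 2.74 ± 0.41 (adjusted p = 0.00233). They were lower than testes by 3.43-fold (adjusted p = 0.00669). Only 1 probe, named by its description, stands behind these values.

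*Piwil2* encodes MILI, the PIWI protein of the granules beside mitochondria. The control testes read 0.76, 1.20 and 1.1 and the control ovaries 0.32, 0.04 and -0.12. The *Smad4 (Stella)* ovaries were at 0.49, -0.03 and -0.05, and the DKO ovaries at 1.73, 1.36 and 1.31. All DKO ovaries were thus above all testes as well as above all other ovaries. DKO exceeded control ovaries by 1.39 ± 0.19, or 2.62-fold (adjusted p = 0.000608), where the testes exceeded them by 0.94 ± 0.19, or 1.92-fold (adjusted p = 0.00233). The DKO ovaries against the testes gave 0.45 ± 0.19, which did not pass the test (adjusted p = 0.0925). No slide held both of these groups. With slide as a block the difference was 0.89 (limma adjusted p = 0.105). With every array shifted so that *Ddx4* was equal it turned sign, to -0.26 (limma adjusted p = 0.186).

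*Mov10l1*, the RNA helicase that binds piRNA precursors, passed the test in none of the 5 comparisons. Its values on all 12 arrays ran from -1.69 in control testis 1 to -0.68 in DKO ovary 3. DKO and control ovaries differed by 0.01, with a 95% interval from -0.39 to 0.41, and testes and control ovaries by -0.35, with an interval from -0.75 to 0.05. These intervals leave room for a change of up to about 1.32-fold upward in the DKO ovaries.

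Among the Tudor genes, *Tdrd9*, an RNA helicase that works with MIWI2, gave the smallest adjusted p of the 10 genes in DKO against control ovaries. Its levels were 1.93, 2.43 and 2.04 in testes, -0.96, -1.0 and -0.67 for control ovaries, -0.77, -0.65 and -0.38 for *Smad4 (Stella)* ovaries, and 1.71, 1.05 and 2.0 in DKO ovaries. DKO ovary 3 reached the range of the testes, the other two lay below it, and all were separated from both other groups of ovaries. The difference from control ovaries was 2.46 ± 0.23, or 5.51-fold (adjusted p = 6.55e-05), next to 3.01 ± 0.23 in testes (adjusted p = 3.34e-06). Against testes, DKO ovaries stood at -0.55 ± 0.23 and did not pass the test (adjusted p = 0.0902).

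*Tdrd5*, a granule protein needed for transposon silencing in the male germ line, is the average of its 2 probes. The mean level was -0.61, -0.46 and -0.06 in testes, -3.10, -4.21 and -3.51 for control ovaries, -2.51, -3.42 and -3.50 for *Smad4 (Stella)* ovaries, and -0.87, -0.87 and -1.60 in DKO ovaries. In this average no DKO ovary overlapped with the other ovaries, and none reached the testes. On the bright probe printed above, which was measured on all arrays, DKO ovaries exceeded control ovaries by 1.64 ± 0.25, or 3.13-fold (adjusted p = 0.000967), and testes did so by 2.62 ± 0.25, or 6.14-fold (adjusted p = 1.29e-05). The dim probe was not well above background in any of the 3 control ovaries and was above it in all 3 DKO ovaries and all 3 testes. It therefore gave only bounds, of at least 4.46-fold higher in DKO ovaries and at least 6.30-fold higher in testes, taking the limit of detection of each control array. The fitted differences of the average, 2.49 ± 0.34 in DKO ovaries (adjusted p = 0.000589) and 3.23 ± 0.34 in testes (adjusted p = 3.04e-05), include its values below detection and are not measured folds. Against testes, DKO ovaries were 1.96-fold lower on the bright probe (limma adjusted p = 0.0106). The dim probe (adjusted p = 0.466) and the average (adjusted p = 0.119) did not pass there. On the dim probe DKO ovary 2, at -2.99, lay within the range of the testes.

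*Tdrd1*, the Tudor protein that binds MILI in the granules beside mitochondria, read 0.41, 0.69 and 0.46 in testes and -0.63, -1.56 and -0.95 in control ovaries. It read -1.15, -1.45 and -1.61 in *Smad4 (Stella)* ovaries and 0.66, -0.23 and 0.59 in DKO ovaries. DKO ovaries 1 and 3 lay within the range of testes, and DKO ovary 2 between them and the control ovaries. The DKO difference was 1.38 ± 0.27, or 2.61-fold (adjusted p = 0.00479), and that of testes 1.57 ± 0.27, or 2.97-fold (adjusted p = 0.000888). Both *Tdrd1* probes were called in both comparisons.

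*Rnf17* encodes a RING finger protein with Tudor domains that restrains secondary piRNA production in male germ cells. It had the opposite pattern, at -3.54, -3.85 and -3.27 in testes and -1.94, -1.53 and -1.92 in control ovaries. *Smad4 (Stella)* ovaries were at -2.24, -2.08 and -2.61, below all control ovaries, and DKO ovaries at -3.08, -2.43 and -3.05. *Rnf17* was lower in testes than in control ovaries by 3.38-fold (adjusted p = 0.000101) and DKO ovaries were 2.08-fold below control ovaries (adjusted p = 0.00669). In *Smad4 (Stella)* ovaries the difference from control ovaries was -0.52 ± 0.22 and did not pass (adjusted p = 0.237). In DKO against *Smad4 (Stella)* ovaries it was -0.54 ± 0.22 and did not pass either (adjusted p = 0.151). With normexp background correction neither call held: the testis difference was -0.75 (adjusted p = 0.21) and the DKO difference -0.31 (adjusted p = 0.624). The DKO call held in 21 of 24 alternatives, with adjusted p from 0.0035. One of its probes was above background in only 1 of the 3 testes, so that the 3.38-fold rests in part on values below detection. The other probe alone was 2.98-fold lower in testes than in control ovaries (limma adjusted p = 0.0014).

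Of the remaining factors, *Gtsf1*, a zinc finger protein that assists PIWI proteins in cutting their targets, was at 4.10, 4.37 and 4.34 in testes and 2.17, 1.28 and 1.79 in control ovaries. *Smad4 (Stella)* ovaries were at 2.11, 1.70 and 1.94, and DKO ovaries at 3.20, 2.47 and 2.16. The testes stood apart from all ovaries, whereas the lowest DKO ovary overlapped with the highest control ovary. Testes exceeded control ovaries by 2.53 ± 0.28, or 5.76-fold (adjusted p = 3.63e-05). The DKO difference of 0.86 ± 0.28, or 1.82-fold, was just past the threshold (adjusted p = 0.0473). It was 1.27 ± 0.37 on one probe and 0.45 ± 0.23 on the other, which alone did not pass (adjusted p = 0.201). It was called in 7 of 24 alternative analyses, over which its adjusted p ran from 0.0108 to 0.299. DKO ovaries were lower than testes by 3.17-fold (adjusted p = 0.000982).

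*Asz1* (GASZ), a scaffold on the outer mitochondrial membrane, was at 0.81, 1.04 and 1.34 in testes and 0.66, 0.13 and 0.20 in control ovaries. *Smad4 (Stella)* ovaries were at -0.07, 0.02 and -0.16, all below the control ovaries, and DKO ovaries at 1.20, 0.63 and 0.47. No slide held both *Smad4 (Stella)* and control ovaries, and with slide as a block their difference was 0.21 in place of -0.41. Testes were 1.66-fold higher than control ovaries (adjusted p = 0.0158), with a call that held in 18 of 24 alternatives and was lost without control ovary 2, control ovary 3 or control testis 3. DKO ovaries were 1.79-fold higher than *Smad4 (Stella)* ovaries (adjusted p = 0.0289), a call that held in 12 of 24 and was lost without any 1 of the *Smad4 (Stella)* ovaries or of DKO ovaries 1 and 2. DKO against control ovaries gave 0.43 ± 0.21 and did not pass (adjusted p = 0.182). Over all alternatives the adjusted p of the testis comparison ran from 3.69e-05 to 0.227 and that of DKO against *Smad4 (Stella)* ovaries from 0.0194 to 0.477.

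*Mael*, a protein of the perinuclear granules required for transposon repression, passed the test in no comparison. It ranged from 4.41 to 4.78 in testes, 4.56 to 4.61 in control ovaries, 4.19 to 4.39 in *Smad4 (Stella)* ovaries and 4.25 to 4.98 in DKO ovaries. The difference was 0.02 between testes and control ovaries, with a 95% interval from -0.35 to 0.40, and 0.03 between DKO and control ovaries, with an interval from -0.34 to 0.41.

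**Figure D3:**
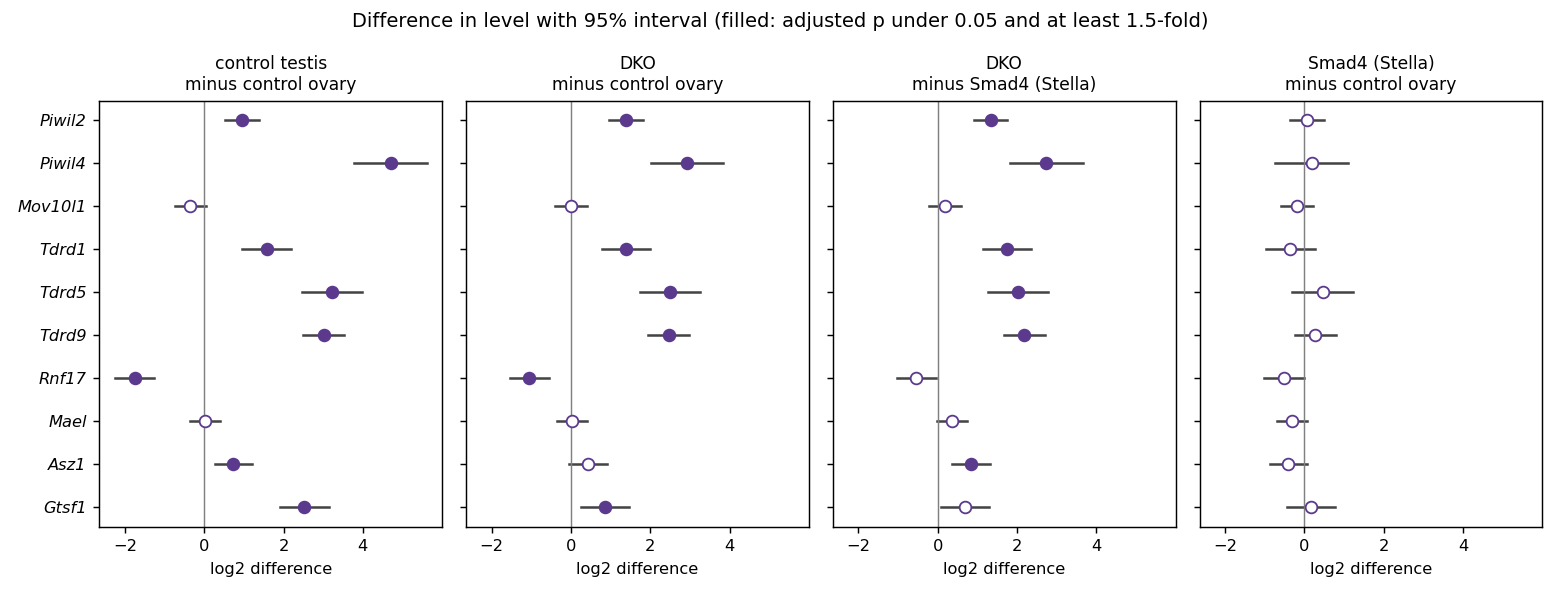
Difference in level between groups for each of the 10 genes, in log2, with its 95% interval from the limma fit. Filled points were called at an adjusted p under 0.05 and at least 1.5-fold. The first 3 panels hold 8, 7 and 6 filled points, and the last panel, *Smad4 (Stella)* against control ovaries, holds 0.

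In the order of group means, control and *Smad4 (Stella)* ovaries were the 2 lowest groups for 7 of the genes, namely *Piwil2*, *Piwil4*, *Tdrd1*, *Tdrd5*, *Tdrd9*, *Asz1* and *Gtsf1*, and no gene passed the test between these neighbours. Testes were highest for all 7 except *Piwil2*. DKO ovaries and testes were neighbours in each, and among them passed the test for *Piwil4* and *Gtsf1*, both lower in DKO ovaries. Of the other 3 genes *Rnf17* passed, which was 1.63-fold higher in DKO ovaries (adjusted p = 0.0300). Together these were 3 of the 10 genes, against 25.8% of all genes called in this comparison, 12.7% higher and 13.1% lower. The groups did not overlap on 5 of the 10 and on 50.5% of all. *Smad4 (Stella)* ovaries against testes, compared after the data had been seen, gave 7 of the 10 lower and *Rnf17* higher, with 30.9% of all genes called, 14.6% higher and 16.3% lower, and no overlap on 9 of the 10 against 63.8% of all. The *Rnf17* call between DKO ovaries and testes held in 11 of 24 alternatives, with adjusted p from 0.0228 to 0.978. Among the arrays left out in turn, it was lost without control testis 1, control testis 2 or DKO ovary 2. The 1.63-fold of *Rnf17* rests in part on values below detection, since 1 of its probes was above background in only 1 of the 3 testes. The other probe alone gave 0.45 ± 0.30 and did not pass the test (limma adjusted p = 0.264). The calls of *Smad4 (Stella)* ovaries against testes were not recomputed in the alternatives.

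The arrays lay on 3 slides, which did not hold all groups equally. Slide 2 held control ovaries 2 and 3 with DKO ovaries 1 and 2, and within it the differences were 3.67 for *Piwil4*, 2.99 for *Tdrd5*, 2.21 for *Tdrd9*, 1.59 for *Piwil2*, 1.47 for *Tdrd1*, 1.30 for *Gtsf1* and -1.03 for *Rnf17*. Each kept the direction it had over all arrays. The arrays of a slide also entered the calls, so that a direction kept within a slide is no separate check. Slide 1 held the 3 testes and control ovary 1, and the 8 genes called between them kept their direction within it, from -1.61 for *Rnf17* to 4.07 for *Piwil4*. With slide as a block, *Piwil2* (0.70, limma adjusted p = 0.0642) and *Asz1* (0.40, adjusted p = 0.227) were no longer called there. Slide 3 held the *Smad4 (Stella)* ovaries and DKO ovary 3, where *Tdrd9* differed by 2.60, *Tdrd1* by 1.99, *Piwil4* by 1.87, *Tdrd5* by 1.54, *Piwil2* by 1.17 and *Asz1* by 0.54. There *Tdrd5* (adjusted p = 0.0746) and *Asz1* (adjusted p = 0.272) lost their calls with slide as a block. No slide held both control and *Smad4 (Stella)* ovaries, or both DKO ovaries and testes, so that for these pairs within-slide values could not be had. With slide as a block, none of the 10 genes was called between DKO ovaries and testes, in place of 3. With that block the *Smad4 (Stella)* difference of *Piwil4* from control ovaries, linked only through the DKO arrays, was 1.80 in place of 0.18 (limma adjusted p = 0.178), that of *Tdrd5* 1.45 in place of 0.46 (adjusted p = 0.312) and that of *Gtsf1* 1.06 in place of 0.17 (adjusted p = 0.316). The *Smad4 (Stella)* differences of *Asz1* and *Tdrd9* from control ovaries turned sign with that block. They were 0.21 in place of -0.41 (limma adjusted p = 0.833) and -0.39 in place of 0.28 (adjusted p = 0.720). The *Piwil4* DKO difference from testes was -0.41 in place of -1.78.

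In the 5 genes with 2 probes above background, both probes gave the same direction for *Tdrd1*, *Tdrd5*, *Gtsf1* and *Rnf17* in control testes and in DKO ovaries, each against control ovaries. In *Smad4 (Stella)* against control ovaries they differed in sign for *Tdrd5* (-0.06 and 0.98), *Gtsf1* (0.43 and -0.09) and *Mov10l1* (0.002 and -0.37), none past the test. The probes of *Mov10l1* differed in sign in DKO against control ovaries, at 0.20 ± 0.24 and -0.19 ± 0.16.

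**Figure D4:**
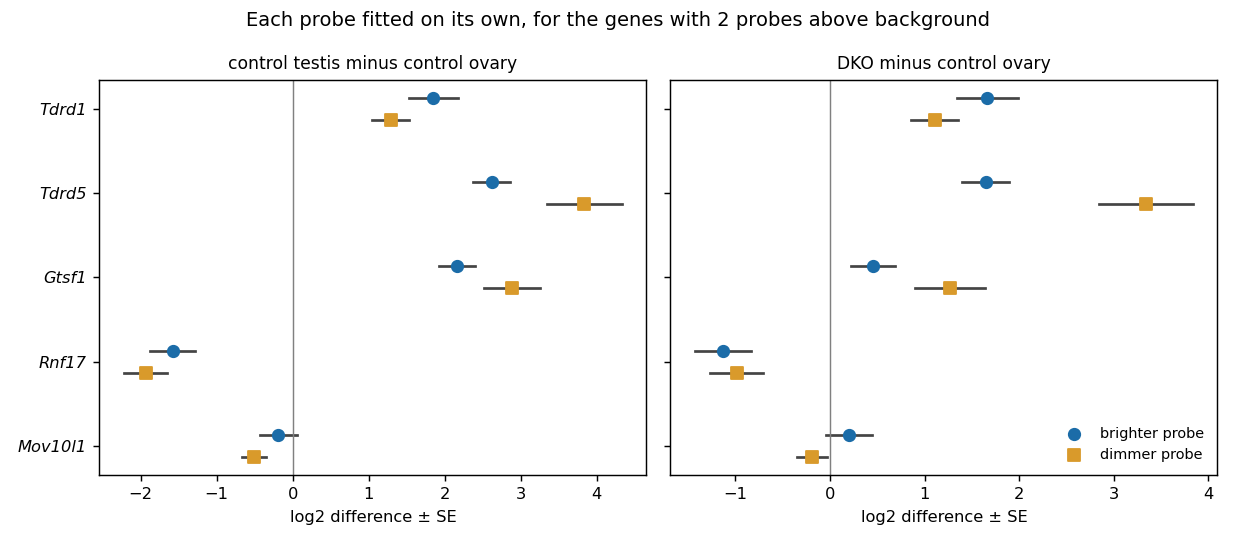
Log2 difference ± SE of each probe fitted on its own, for the 5 genes with 2 probes above background; circles are the brighter and squares the dimmer probe of a gene. In *Tdrd5* and *Gtsf1* the dimmer probe gave the larger difference, and the dimmer *Tdrd5* probe was not well above background in control ovaries, so that its fitted value there is no measured fold.

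Further genes of the pathway were taken from 3 lists. Of 14 other piRNA genes, 12 were on the arrays and 11 were tested, *Ddx4* among them. In DKO against control ovaries 6 were higher, 2 lower and 3 did not pass, with a median of 0.60 where all genes had 0.00. Of all genes, 6.71% were called higher and 7.94% lower in this comparison. With normexp background correction 2 were higher, *Gtsf1l* and *Wdr77*, and 1 lower, *Gpat2*. *Gtsf1l*, a close relative of *Gtsf1*, was at -4.99, -6.27 and -6.09 for control ovaries, -2.37, -3.27 and -4.16 for *Smad4 (Stella)* ovaries, 0.39, 0.40 and -0.89 in DKO ovaries and -0.14, -0.50 and 0.81 in testes. DKO ovaries 1 and 2 lay within the range of the testes and DKO ovary 3 below it, and *Gtsf1l* was called higher than in control ovaries (adjusted p = 6.69e-05). It was above background in only 1 of the 3 control ovaries, so that the fitted difference of 5.75 ± 0.55 rests in part on values below detection. The *Smad4 (Stella)* ovaries were all above the control ovaries, by 2.52 ± 0.55, but did not pass the test (adjusted p = 0.0768). *Henmt1*, the methyltransferase that caps the 3′ end of piRNAs, was 3.27-fold higher (adjusted p = 0.00294).

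*Piwil1*, the PIWI protein of later spermatogenesis, was not well above background in any control or *Smad4 (Stella)* ovary. Against control ovaries it was at least 1.96-fold higher in DKO ovaries and at least 3.45-fold higher in testes. The limma fits that called it (adjusted p = 0.000364 and 1.80e-05) use control ovary values below detection and do not test these bounds. With normexp *Piwil1* was called in neither comparison. *Pld6*, the mitochondrial nuclease of piRNA biogenesis, was 2.29-fold higher in DKO ovaries (adjusted p = 0.0108) but did not pass in testes. *Wdr77* and *Prmt5*, which together methylate the arginines that Tudor domains read, were 1.89-fold (adjusted p = 0.000929) and 1.52-fold higher (adjusted p = 0.0157). *Gpat2*, a mitochondrial acyltransferase of the pathway, and *Mybl1*, a transcription factor of later piRNA genes, were 2.62-fold (adjusted p = 0.000287) and 2.79-fold lower (adjusted p = 5.43e-05). In testes against control ovaries, 5 of the 11 were higher and 2 lower, with *Exd1* 2.93-fold higher. Of all genes, 17.2% were called higher and 16.7% lower there. *Smad4 (Stella)* ovaries gave 0 calls in this list, in the Tudor list and in the silencing list. Of all genes, 0.279% were called in that comparison with control ovaries.

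Of 10 other Tudor domain genes, 9 were tested. In DKO against control ovaries 2 were higher, 2 lower and 5 not past the test, with a median of -0.15. That stands against 6.71% of all genes called higher and 7.94% lower. With normexp *Tdrd12* was higher, *Stk31* and *Tdrd7* were lower, and *Tdrkh* and *Akap1* were not called. *Tdrd12*, a helicase that partners with *Exd1* in secondary piRNA production, was at -0.63, -0.89 and -0.82 for control ovaries, 0.44, -0.28 and -0.47 for *Smad4 (Stella)* ovaries, 1.58, 1.83 and 1.0 in DKO ovaries and -0.09, 0.12 and 0.60 in testes. All DKO ovaries were thus above all testes, and *Tdrd12* was 4.76-fold higher in DKO than in control ovaries (adjusted p = 0.000298) and 1.99-fold higher in testes (adjusted p = 0.0129). With every array shifted so that *Ddx4* was equal, *Tdrd12* was not called between DKO ovaries and testes. *Tdrkh*, the mitochondrial partner of PIWI proteins, was lower by 2.39-fold in DKO ovaries (adjusted p = 3.58e-05) and by 3.93-fold in testes (adjusted p = 3.49e-07). *Stk31* was also lower and *Akap1*, a mitochondrial anchor protein, higher in DKO ovaries, by 1.60-fold and 1.57-fold. In testes *Snd1* was higher and *Tdrd7* lower than in control ovaries, and with the *Ddx4* shift *Tdrd7* was not called there.

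Of 12 genes of nuclear silencing, 10 were tested. In DKO against control ovaries 4 were higher, 2 lower and 4 not past the test, with a median of 0.49. That stands against 6.71% of all genes called higher and 7.94% lower. With normexp 3 were higher and 2 lower, without *Ehmt2*. *Nxf2*, an RNA export factor, and *Morc1*, which silences transposons in male germ cells, were higher in DKO ovaries by 3.39 ± 0.30 (adjusted p = 4.85e-05) and 2.88 ± 0.28 in log2 (adjusted p = 6.97e-05). In testes they were 13.9-fold and 15.1-fold higher. *Dnmt3l*, the cofactor of de novo DNA methylation, was at 1.65, 2.53 and 2.18 in testes, -4.95, -4.43 and -4.86 for control ovaries, -4.54, -6.80 and -5.85 for *Smad4 (Stella)* ovaries and -2.19, -3.65 and -4.31 in DKO ovaries. All DKO ovaries were thus well below all testes. *Dnmt3l* passed the test between DKO and *Smad4 (Stella)* ovaries (adjusted p = 0.0295) but not between DKO and control ovaries, at 1.36 ± 0.60 (adjusted p = 0.135). It was above background in only 1 of the 3 *Smad4 (Stella)* ovaries, so that the first of these calls rests in part on values below detection.

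*Dnmt3b* and *Ehmt2*, which methylate DNA and histone H3, were 1.70-fold and 1.52-fold higher in DKO than in control ovaries. *Tex15*, a partner of PIWI proteins in nuclear silencing, and *Setdb1*, another histone methyltransferase, were 2.73-fold and 1.68-fold lower. Both were also lower in testes, by 2.09-fold and 2.03-fold, where *Dnmt3a*, *Ehmt2* and *Trim28* were higher. With every array shifted so that *Ddx4* was equal, neither *Tex15* nor *Setdb1* was called between testes and control ovaries. Within slide 2 all 18 genes of the 3 lists that were called in DKO against control ovaries kept their direction. The arrays of slide 2 also entered those calls, so that this is no separate check.

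**Figure D5:**
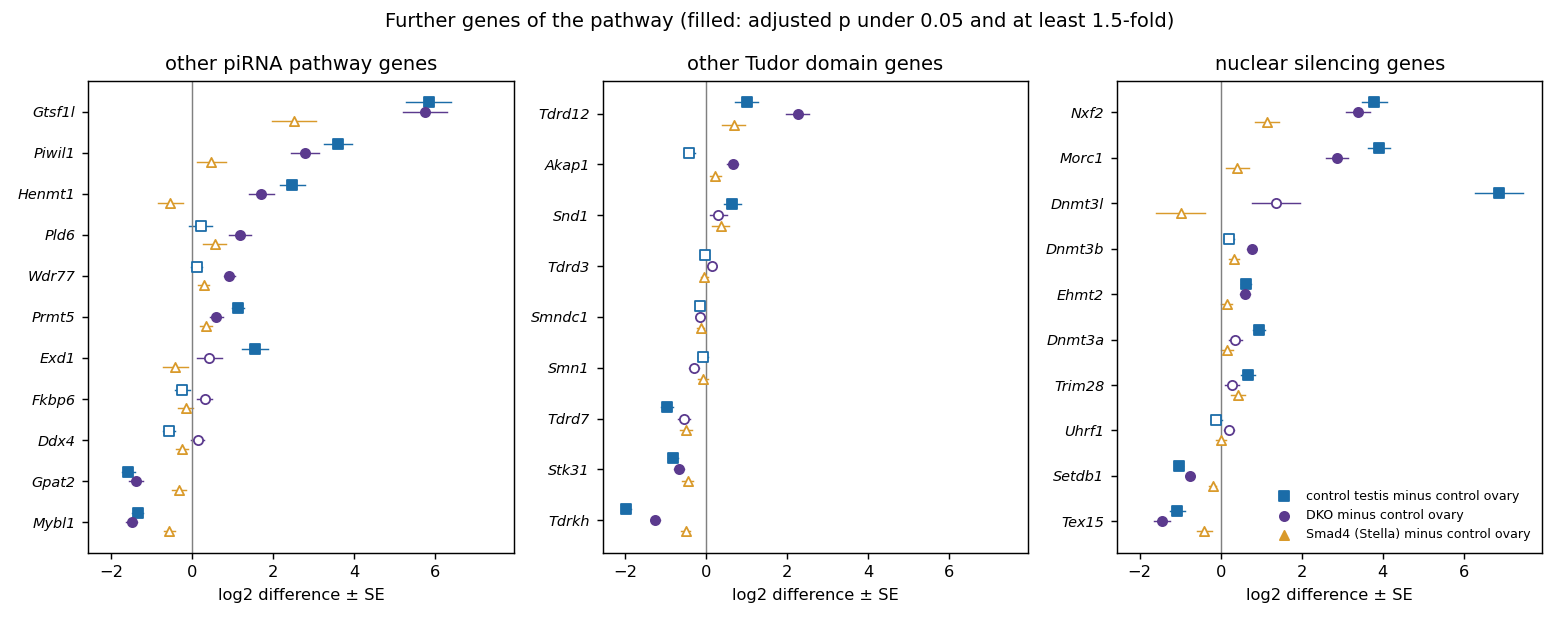
Log2 difference ± SE of the tested genes in the 3 lists, for control testes (squares), DKO ovaries (circles) and *Smad4 (Stella)* ovaries (triangles), each minus the same control ovaries. Filled symbols were called at an adjusted p under 0.05 and at least 1.5-fold, and no triangle is filled. *Dnmt3l* is far to the right in testes only.

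Some markers of other cell types moved with the DKO group. *Cd68* was higher than in control ovaries, 1 of 4 macrophage markers, and the summed level of the 4 (in units of the 75th percentile) was 2.08 to 4.49 in DKO and 1.65 to 2.07 in control ovaries. *Lhx1* was higher, 1 of 4 mesonephric markers, whose sums overlapped at 0.415 to 2.53 and 0.171 to 1.67. Against *Smad4 (Stella)* ovaries, the Sertoli marker *Amh* was 1.88-fold higher in DKO ovaries (adjusted p = 0.0127), 1 of 6, with sums of 2.09 to 2.89 against 2.41 to 2.86. The Leydig marker *Star* was 1.54-fold lower (adjusted p = 0.0246), 1 of 4, with sums of 1.97 to 2.38 against 1.61 to 3.03. The *Amh* call was lost with quantile normalization, normexp, scaling on *Ddx4* and the deposited table. *Star* turned sign with normexp and was not called with the deposited table. Against control ovaries, *Cd68* was not called with normexp, scaling on *Ddx4* or the deposited table, nor *Lhx1* with normexp. The part of these cell types in the results above was not tested. With every array shifted so that *Ddx4* was equal, the 7 genes called in DKO against control ovaries stayed called, with differences from -1.20 for *Rnf17* to 2.77 for *Piwil4*. *Ddx4* was not called between these groups but was higher in DKO ovaries than in testes. There the same shift called 7 genes in place of 3, all lower in DKO ovaries. They were *Piwil4* (-2.49), *Gtsf1* (-2.38), *Tdrd5* (-1.45), *Tdrd9* (-1.26), *Asz1* (-1.01), *Tdrd1* (-0.90) and *Mael* (-0.70). Of all genes, 11043 were called there with this shift, in place of 4807.

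The genes most alike in pattern over the 12 arrays are given by Pearson r, as a description in which the 4 groups set most of the spread. *Piwil4* was closest to *Brdt* (r = 0.995), *Ap3m2* and *9130401M01Rik*, and *Tdrd5* to *Fetub* (r = 0.990), *Wdr95* and *Ppm1a*. *Gtsf1* was closest to *Trim68* (r = 0.989), *Mrpl23* and *Cry2*, and *Piwil2* to *Shcbp1l* (r = 0.978), *Xpc* and *Tbx6*. *Tdrd1* was followed by an unnamed transcript (r = 0.966), *Henmt1* and *Cetn1*, and *Tdrd9* by *Otx2* (r = 0.963), *Dvl2* and *Piwil1*. *Rnf17* was closest to *Mpp5* (r = 0.966), *Esco1* and *Palb2*, and *Asz1* to *Trmt44* (r = 0.964), *Metap1* and *Cept1*. *Mael* and *Mov10l1* had weaker leads, *Ap1g2* at r = 0.918 with *Bcorl1* and *Akirin2*, and *Uprt* at r = 0.867 with *Serinc4* and *Nkx6-2*. Among the 10 themselves, *Piwil4* and *Tdrd5* were most alike (r = 0.970), and *Tdrd9* and *Rnf17* most opposed (r = -0.925).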

How the data were processed

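RNA of E14.5 gonads had been labelled with Cy3 and hybridised to 12 single-colour Agilent whole mouse genome arrays. The authors deposited scanner tables from Feature Extraction 11.0.1.1, in which background is already subtracted from the processed intensity, and a table that holds the same intensity rounded to 3 digits without scaling between arrays. Groups and replicate numbers came from the labels. Probe coordinates are those of the array design (mm9), and promoter sequences are those of RefSeq (GRCm38.p6).

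Outlier and control spots were left out, log2 intensity was taken relative to the 75th percentile of each array, and spots were averaged per probe. A probe was kept where 1 or more groups had it well above background throughout (27309 of 41174) and averaged per gene, with symbols updated through RefSeq (31793 probes matched). Differences between the 4 groups were tested with limma 3.58.1 in R 4.3.3, in 1 model without a block (with *Smad4 (Stella)* ovaries against testes added after the data were seen), and p-values were adjusted by Benjamini-Hochberg. On simulated data for DKO against control ovaries (18633 genes), 71% of changes of 1.5 and 95% of changes of 3 in log2 were recovered, with 10 false calls. The simulation changed 200 genes, with independent noise, no slide effect and no difference between the other groups. In the data 14.7% of genes were called there and slides were not balanced, so these rates may not hold for the data. A bound for a dim probe sets the brighter group against the lowest signal above background on each array. Arrays carry no read depth, and 3 arrays per group limit the precision.

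The genes and lists were chosen with earlier results of these data known. Named genes are the 10, the members of the further lists that passed in any comparison, and the 3 genes most alike to each. Of the lists, *Pnldc1*, *Btbd18*, *Dnmt3c*, *Spocd1*, *Gcna* and *Insl3* had no matched probe, and *Gtsf2* and *Tdrd6* were too dim. No sequence is printed for *Piwil2* and *Rnf17*. Alternatives covered normalization, background correction, filter, probe choice, slide and replicate as blocks, the groups fitted, scaling on *Ddx4*, the deposited table, Student's t as the methods' t-test, a 2-fold threshold and each array left out in turn.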

Additional observations from a re-analysis of the deposited data

How the results depend on the processing

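Called differences of the 10 genes were recomputed in 24 alternative analyses each, giving 576 values, of which 508 kept the call and the direction, 67 kept the direction without the call and 1 turned sign. Of 624 values not called before, 45 turned sign and 12 were called in an alternative. The called value that turned was *Rnf17* (-0.0097), and the value called only with the opposite sign was *Mael* (-0.70), both in DKO ovaries against control testes with scaling on *Ddx4*, which lowered the median of all genes there by 0.73. The counts of genes called for DKO against control ovaries were 4 (in place of 7) with normexp background correction and 3 with the methods' t-test. For DKO against *Smad4 (Stella)* ovaries they were 3 and 0 (in place of 6). In that t-test 6 genes were under an unadjusted p of 0.05, a limit at which the share of all genes was not computed. For DKO ovaries against control testes they were 0 (in place of 3) with slide as a block and 1 with the methods' t-test. With scaling on *Ddx4* they were 7, all lower in DKO ovaries. Normexp shifted the median of all genes by 0.26 and 0.27 in the 2 DKO comparisons. In DKO against control ovaries, *Piwil2*, *Tdrd5* and *Tdrd9* stayed called in both, and *Piwil4* under normexp. The causes were not tested. Over all genes, normexp gave 2650 calls in place of 6339 for testes, 901 in place of 2735 for DKO against control ovaries, 224 in place of 1572 for DKO against *Smad4 (Stella)* ovaries and 1551 in place of 4807 for DKO ovaries against testes. The 52 calls of *Smad4 (Stella)* against control ovaries ran from 0 to 217 over the alternatives, without *Smad4 (Stella)* ovary 3 and without DKO ovary 1. Leaving out 1 array gave 7 to 8 genes called in control testes against control ovaries, 0 to 0 in *Smad4 (Stella)* ovaries, 6 to 7 and 5 to 6 in DKO against control and *Smad4 (Stella)* ovaries, and 2 to 4 in DKO ovaries against control testes. The *Gtsf1* call in DKO against control ovaries was kept only without control ovary 1 or DKO ovary 3, and lost without any 1 of the other 10 arrays, with 0.56 as its lowest difference. Replicate numbers did not pair the arrays: of 18 pairs with equal numbers 2 correlated above 0.1, over a range of -0.18 to 0.15, and 5 of 12 arrays correlated best with their own number. The replicate block left the counts at 8, 0, 7, 6 and 3. Under normexp, *Mybl1*, *Taf4b* and *Star* turned sign in DKO against *Smad4 (Stella)* ovaries. With the deposited table, the further piRNA genes gave 4 higher and 2 lower, the Tudor genes 1 and 1, and the silencing genes 2 and 1 in DKO against control ovaries. Dim probes limit *Tdrd5*, *Piwil1*, *Rnf17*, *Gtsf1l* and *Dnmt3l*.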
